A study of Bos taurus with 8 samples.

Results

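CC chemokines are small secreted proteins, named for a pair of adjacent cysteines, that draw leukocytes along a concentration gradient. The genes described are CCL2, CCL3, CCL4, CCL5 and CCL20, measured in bovine peripheral blood granulocytes by 1 probe each. They were chosen by symbol, matched to each probe by its accession or gene identifier, or failing these by its listed name or description, and make up 5 of the 6771 genes that could be named on the array. RNA came from 4 cows (Bos taurus) sampled in both groups. The control group was taken on day 7 of the oestrous cycle, when the cows were not pregnant and had received no embryo (4 arrays). The other group was taken on day 21, when the same cows were pregnant after embryo transfer (4 arrays). No age, breed, agent or genotype was given for the animals. Day, pregnancy, transfer and order of sampling changed together in every cow and cannot be told apart. The comparison addresses how transcripts of circulating granulocytes differ in early pregnancy.

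Chemokines of this class act through G protein-coupled receptors on the surface of monocytes, lymphocytes and granulocytes. CCL2 attracts monocytes and is made by monocytes, macrophages and many stromal cells. CCL3 and CCL4, also known as macrophage inflammatory proteins, are made by activated macrophages, neutrophils and lymphocytes, and CCL5 is a typical product of T cells and natural killer cells. CCL20 binds CCR6 and attracts dendritic cells and lymphocytes to epithelia. Neutrophils, the main cell of a granulocyte preparation, release several of these proteins once activated by bacterial products or cytokines.

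Each level below is the signal of one oligonucleotide of 60 bases, and its first 30 bases, 5′ to 3′ as the deposited scanner tables give them, show which stretch was measured. No letter is capitalised because no motif within the probes is discussed.
CCL2: tccctgggatggtggaagtgtcctcgcaag
CCL3: gcaggtctgtgccaaccccactgaggactg
CCL4: agcgagatgcaccctctccatgctcacgac
CCL5: ccccatctcggtccctcactggggagggct
CCL20: acatgctcagtcaaagagtcaagaggatgt
The GC content of the whole probe was 41.7% for CCL2, 60.0% for CCL3, 55.0% for CCL4, 55.0% for CCL5 and 40.0% for CCL20. The longest run of bases that any of the 5 probes shared, on the same strand, with one of the 15207 other probes on the array was 12 bases. Gene copies that have no probe on the array were not compared, so signal from a near-identical copy of CCL3 or CCL4 cannot be told apart from theirs. In the RefSeq annotation of assembly ARS-UCD2.0, used only for names and neighbours, CCL4, CCL3, CCL5 and CCL2 lie on 1 chromosome in that order and CCL20 lies on another. Between CCL4 and CCL3 the annotation has 1 protein-coding gene, between CCL3 and CCL5 it has 6, among them CCL14 and CCL16, and between CCL5 and CCL2 it has 23. CCL1, CCL8, CCL11 and CCL2 follow each other with no other protein-coding gene between them.

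Levels are given as normalised log2 values, the log2 of the processed spot signal minus that of the array's 75th percentile, so that 0 is the level of that percentile. The median processed signal per array was 49.1 to 186.9 intensity units, and 56.8% to 74.9% of the 15208 probes were well above background by the scanner software's own test. The number of arrays, 4 a group, limits the precision of every comparison. Of the 13 neutrophil marker genes analysed, 12 were well above background on all 8 arrays, as were 8095 of the 15208 probes. Detection alone does not tell which cells were present in what share. Markers of other leukocytes were measured too, among them 7 of 8 monocyte and macrophage genes, 8 of 8 T cell genes and 7 of 8 natural killer and cytotoxic cell genes well above background on all 8 arrays. In such bulk RNA, fewer cells of a type and less RNA per cell cannot be told apart.

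CCL2 had the widest difference of the 5 genes. On day 7 its normalised log2 value was -6.24 in cow 1, -4.44 in cow 2, -5.03 in cow 3 and -4.98 in cow 4. On day 21 it was -4.03 in cow 1, -2.38 in cow 2, -2.34 in cow 3 and -0.95 in cow 4. Every day 21 array lay above every day 7 array, with cow 4 highest on day 21 and cow 1 lowest on both days, and the groups were 0.41 apart at their closest. Groups that do not overlap, with day 21 higher, were found for 3.09% of the 10307 probes tested and measured on all 8 arrays. CCL2 was dim on day 7, with processed signals of 8.72, 49.5, 58.6 and 32.9 intensity units in cows 1 to 4, of which those of cows 1 and 4 were not well above background. On day 21 the signals were 81.7, 96.0, 309.9 and 470.2 intensity units, all well above background.

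The group mean of CCL2 went from -5.17 ± 0.76 (SD, n = 4) on day 7 to -2.42 ± 1.26 (SD, n = 4) on day 21 on the normalised log2 scale. The log2 difference was 2.75 ± 0.63 (SE), with a 95% confidence interval of 1.35 to 4.15, which is 6.72-fold (2.55 to 17.7). Its unadjusted p of 0.00129 became 0.310 in limma after Benjamini-Hochberg adjustment, with the direction seen in 4 of 4 cows. It did not pass the threshold of 0.05. In background correction by normexp, with an offset of 50 added to every signal, the difference was 1.49 (2.80-fold, adjusted p = 0.433, higher in 3 of 4 cows) with scaling to the 75th percentile and 1.53 (2.89-fold, adjusted p = 0.272) with quantile normalisation. It passed in limma without the day 21 array of cow 1 (3.29, adjusted p = 0.0436) and with arrays weighted by their quality (3.69, adjusted p = 0.00244). The weights were largest for the cow 4 arrays, 3.27 on day 7 and 7.02 on day 21. CCL2 differed most in that cow (4.03), whose day 7 array had the smallest share of probes well above background (56.8%). The adjusted p of CCL2 in limma ranged from 0.00244 to 0.548 over 10 alternative settings. It ranged from 0.0436 to 0.9999 over 12 fits that each left out an array or a cow.

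Within cows, CCL2 was higher on day 21 by 2.20 in cow 1, 2.06 in cow 2, 2.70 in cow 3 and 4.03 in cow 4 on the log2 scale. The mean within-cow difference of 2.75 ± 0.90 (SD, n = 4) was thus more than its spread between cows. An exact two-sided sign-flip permutation test gave p = 0.125, the smallest that 4 cows allow. Slides 3 and 4 each held the 2 arrays of 1 cow, so their differences of 2.70 and 4.03 are those of cows 3 and 4 again. On slide 1 the day 21 array of cow 1 was 1.31 above the mean of cows 1 and 2 on day 7.

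**Figure D1:**
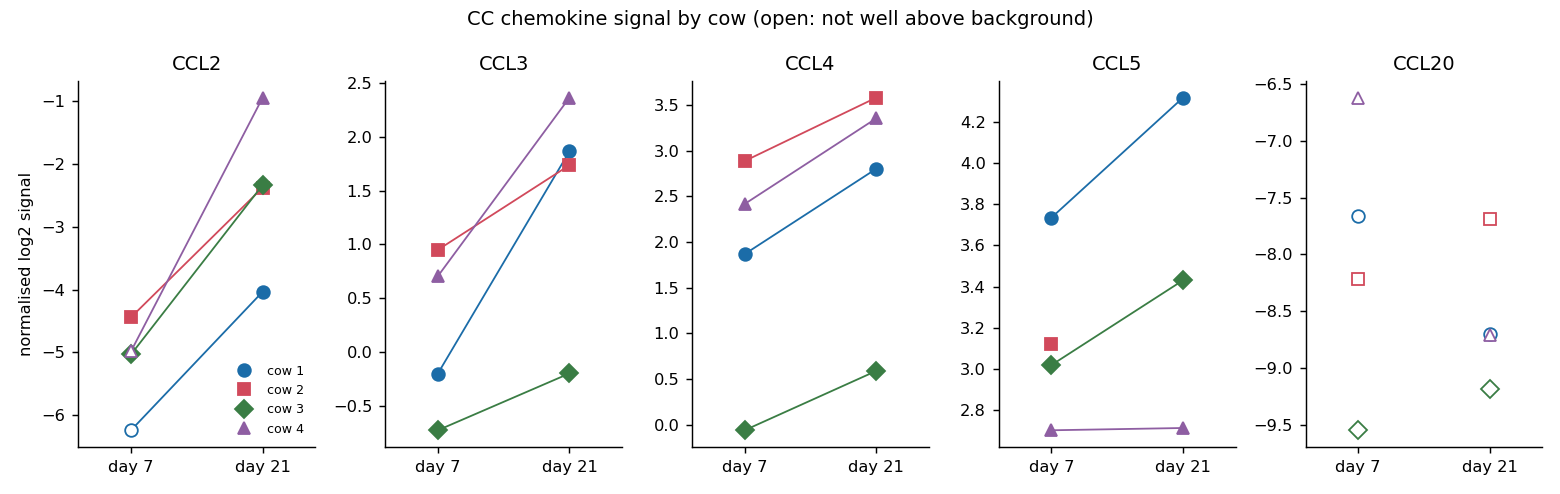
Normalised log2 value (log2 processed signal minus the array's 75th percentile) of each of the 5 genes on day 7 and day 21, with 1 point per array and a line joining the arrays of a cow; open points are not well above background. Only for CCL2, of the 4 genes tested, do the groups not overlap. CCL20 is drawn without lines because all of its values, between -9.54 and -6.62, are surrogates for signals at background, and CCL5 lacks the day 21 array of cow 2.

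CCL3 and CCL4, the macrophage inflammatory proteins, were higher on day 21 in every cow but with wide differences between cows. CCL3 had normalised log2 values of -0.20, 0.95, -0.73 and 0.70 in cows 1 to 4 on day 7 and of 1.87, 1.74, -0.20 and 2.36 on day 21. The groups overlapped, since cow 3 on day 21 remained below cows 2 and 4 on day 7. The means were 0.18 ± 0.78 (SD, n = 4) and 1.44 ± 1.13 (SD, n = 4). The log2 difference was 1.26 ± 0.60 (SE; 95% interval -0.06 to 2.59), or 2.40-fold, with an adjusted p of 0.554 in limma, higher in 4 of 4 cows. Within cows it was 2.07, 0.79, 0.53 and 1.66 in cows 1 to 4 (mean 1.26 ± 0.72, SD), with an exact sign-flip permutation p of 0.125.

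CCL4 had normalised log2 values of 1.87, 2.89, -0.06 and 2.41 in cows 1 to 4 on day 7 and of 2.80, 3.58, 0.59 and 3.35 on day 21. Cow 3 was the lowest and cow 2 the highest on both days, so that the groups overlapped. The means were 1.78 ± 1.29 (SD, n = 4) and 2.58 ± 1.37 (SD, n = 4). The log2 difference of 0.80 ± 0.77 (SE; 95% interval -0.91 to 2.51), or 1.75-fold, had an adjusted p of 0.770 in limma, higher in 4 of 4 cows. Within cows the differences lay close together, at 0.93 in cow 1, 0.69 in cow 2, 0.65 in cow 3 and 0.94 in cow 4 (mean 0.80 ± 0.15, SD), with an exact sign-flip permutation p of 0.125. The spread of CCL4 between cows on 1 day was therefore larger than its difference between days within a cow. As the 2 arrays of cow 3 are low, the unpaired difference was 0.19 without that cow's day 7 array and 1.47 without its day 21 array. It was 0.47 without the day 21 array of cow 2.

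CCL5 showed the narrowest difference. Its normalised log2 value was 3.73, 3.12, 3.02 and 2.70 in cows 1 to 4 on day 7. On day 21 it was 4.32 in cow 1, 3.43 in cow 3 and 2.71 in cow 4, and the spot of cow 2 was left out because the scanner software marked it as an outlier. The groups overlapped, and of the cows measured cow 1 was the highest and cow 4 the lowest on both days. The means were 3.14 ± 0.43 (SD, n = 4) and 3.49 ± 0.80 (SD, n = 3). The log2 difference was 0.34 ± 0.48 (SE; 95% interval -0.73 to 1.41), or 1.27-fold, with an adjusted p of 0.852 in limma, higher in the 3 of 3 cows measured. Within cows it was 0.58 in cow 1, 0.41 in cow 3 and 0.01 in cow 4, with an exact sign-flip permutation p of 0.25, the smallest that 3 cows allow. With the marked spot kept, cow 2 read 2.47 on day 21, a difference of -0.65, and the overall difference was 0.09. The difference was -0.072 without the day 21 array of cow 1 and -0.023 with arrays weighted by quality, so no direction is given for CCL5.

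**Figure D2:**
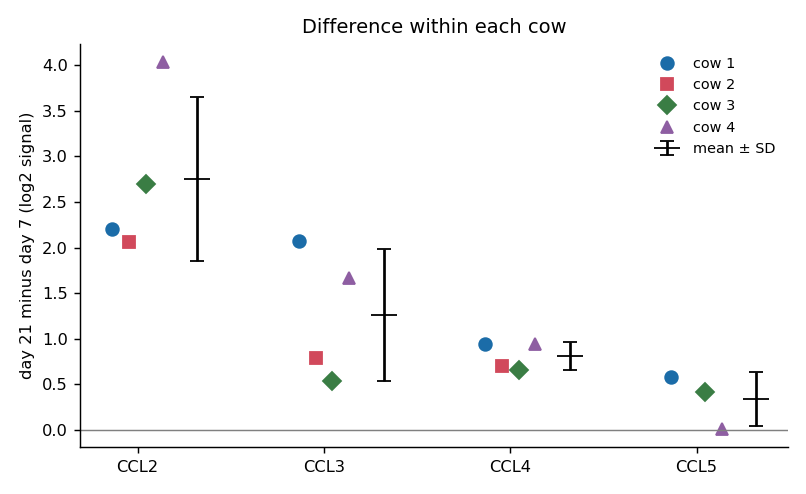
Within-cow difference in normalised log2 value, day 21 minus day 7, for each cow, gene by gene, with the mean and SD over cows as a black bar. The points of CCL2 lie between 2.06 and 4.03, those of CCL4 between 0.65 and 0.94, and those of CCL5, measured in 3 cows, between 0.01 and 0.58.

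CCL20 was not measurable above background. Its signal was replaced by a surrogate on 8 of 8 arrays and was well above background on none, so it was not tested, and its values have no order. The probe gives no information on a difference between the groups at this sensitivity.

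Of the 5 genes, 4 passed the filter on dim probes. All 4 had an unpaired log2 difference above 0 (CCL5 not under every setting), as did 55.9% of the 10459 tested probes, and their median difference was 1.03 against 0.08 for all tested probes. That median was 0.63 without the day 7 array of cow 3 and 1.64 without the day 21 array of cow 3. CCL2, CCL3 and CCL4 were higher in 4 of 4 cows, which held for 15.7% of the probes measured on all 8 arrays (CCL2 in 3 of 4 cows under normexp with the 75th percentile). In limma 0 of the 4 passed an adjusted p of 0.05, as did 0% of all tested probes in either direction. At an unadjusted p of 0.05, 1 of the 4 (CCL2) was higher, against 4.99% of tested probes higher and 4.41% lower. With the cow as a block, which compares each animal with itself, 3 of the 4 (CCL2, CCL3 and CCL4) were higher at an unadjusted p of 0.05, against 9.86% of tested probes, and 0 passed after adjustment. The median over the genes measured in a cow was 1.50 in cow 1, 0.79 in cow 2, 0.59 in cow 3 and 1.30 in cow 4.

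Over the 8 arrays, CCL3 and CCL4 varied together, with a Pearson correlation of 0.90, given as a description since the arrays share cows, slides and overall signal. This and every correlation of genes below pools both days. Genes that differ between days in the same direction therefore correlate through that difference too. CCL2 had a correlation of 0.61 with CCL3 and 0.35 with CCL4. CCL5, over the 7 arrays that measured it, had correlations of -0.26 with CCL2, 0.01 with CCL3 and -0.01 with CCL4. The genes most like each one were taken from 4931 tested genes (4995 for CCL5). For CCL2 they were LMBRD1 (0.98), a lysosomal cobalamin transport protein, OAS2 (0.97), an interferon-induced antiviral enzyme, ARHGEF7 (0.96), ETF1 (0.95) and CD2AP (0.95). Like CCL2, all 5 had a log2 difference above 0, from 0.56 for LMBRD1 to 2.93 for OAS2. None of these 5 remained among the 5 most alike after normexp correction scaled to the 75th percentile, and 3 did after normexp with quantile normalisation.

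For CCL3 the genes most alike were IL10 (0.94), an anti-inflammatory cytokine, TRIM32 (0.94), LRRC41 (0.94), ATP2B1 (0.94), a plasma membrane calcium pump, and TCAP (0.92). For CCL4 they were TNF (0.96), a pro-inflammatory cytokine, EPN2 (0.96), OSM (0.95), a cytokine of activated leukocytes, DLST (0.95) and TCAP (0.94). TCAP is on both lists. The cytokine genes IL1A and IL6, named here after their values were seen, had correlations of 0.91 and 0.89 with CCL4, and 0.20 and 0.09 with CCL2. Other regulators compared did not all go the same way. With CCL4, IL1B had a correlation of 0.70, ATF3 of 0.65 and NFKBIA of -0.74. With CCL2 these were -0.18, 0.62 and 0.26. For CCL5, over 7 arrays, the genes most alike were CARS2, RBM11 and NRGN (0.97 each), STAC2 (0.96) and FMNL2 (0.96), of which 2 remained when the marked spot was kept. Normexp with the 75th percentile kept 2 of the 5 genes for CCL3, 4 for CCL4 and 2 for CCL5, and normexp with quantile normalisation kept 4, 3 and 1.

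Among the other CC chemokines, 7 of 19 listed genes had a probe and 4 were tested, 2 with a value above 0 and 2 below, with a median log2 difference of 0.06 and 0 past the threshold in limma. CCL8, which attracts monocytes and is separated from CCL2 by CCL11 in the annotation, was higher in 4 of 4 cows. Its normalised log2 value was -2.83, 0.43, -3.13 and -2.11 in cows 1 to 4 on day 7 and -0.94, 1.20, 0.95 and -0.39 on day 21. Cow 2 was high on both days and the groups overlapped. The log2 difference was 2.12 ± 0.78 (SE; adjusted p = 0.498 in limma), and its correlation with CCL2 over the 8 arrays was 0.73. The eosinophil chemoattractant CCL24 differed by 0.97 ± 0.73 (SE; adjusted p = 0.706, higher in 3 of 4 cows), and was well above background on 4 of 8 arrays. It was 0.26 without the day 21 array of cow 4, 0.13 without cow 4, 0.29 with normexp and the 75th percentile, and 2.89 with arrays weighted by quality. The homing chemokines CCL19 and CCL25 differed by -1.12 ± 0.52 (SE; adjusted p = 0.547, higher in 1 of 4 cows) and -0.86 ± 0.49 (SE; adjusted p = 0.629, higher in 1 of 4 cows). With normexp CCL19 was -0.13 (75th percentile) or -0.21 (quantile) and CCL25 was -0.40 or -0.50. CCL19 was dim, well above background on 3 of 4 arrays on day 7 and 2 of 4 on day 21. CCL11 and CCL21 were well above background on no array and CCL14 on 1, and they were not tested.

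Of the CC chemokine receptors, 10 of 13 listed genes had a probe and 6 were tested, 4 above 0 and 2 below, with a median log2 difference of 0.32 and 0 past the threshold in limma. Fitting the slide as a fixed term gave a median of -0.13, and leaving out the day 21 array of cow 2 gave -0.046. CCR7, the receptor of CCL19 and CCL21 that guides cells to lymph nodes, had normalised log2 values of -1.53, -2.58, -3.39 and -1.69 in cows 1 to 4 on day 7 and of -1.42, -0.10, -1.58 and 0.02 on day 21. The groups overlapped by a narrow margin, and cow 1 hardly differed between days. The log2 difference was 1.53 ± 0.54 (SE; adjusted p = 0.489 in limma, higher in 4 of 4 cows).

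CCR1, a receptor of CCL3 and CCL5, differed by 0.51 ± 0.90 (SE; adjusted p = 0.884 in limma, higher in 3 of 4 cows). CCR3, the eosinophil receptor of CCL5 and CCL24, differed by -0.63 ± 0.91 (SE; adjusted p = 0.859, higher in 1 of 4 cows). CCRL2, an atypical receptor, differed by 0.71 ± 0.71 (SE; adjusted p = 0.784, higher in 3 of 4 cows). CCR8, a receptor of regulatory T cells, and CCR9, the receptor of CCL25, differed by 0.13 ± 0.43 (SE; adjusted p = 0.943) and -0.04 ± 0.58 (SE; adjusted p = 0.989), each higher in 2 of 4 cows. CCR4 and the scavenging receptors ACKR1, ACKR2 and ACKR4 were too dim to be tested. With arrays weighted by quality, limma called CCL8, CCL19, CCL24, CCL25, CCR7 and CCRL2, each in the direction given here, as it did 879 probes higher and 821 lower in all.

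**Figure D3:**
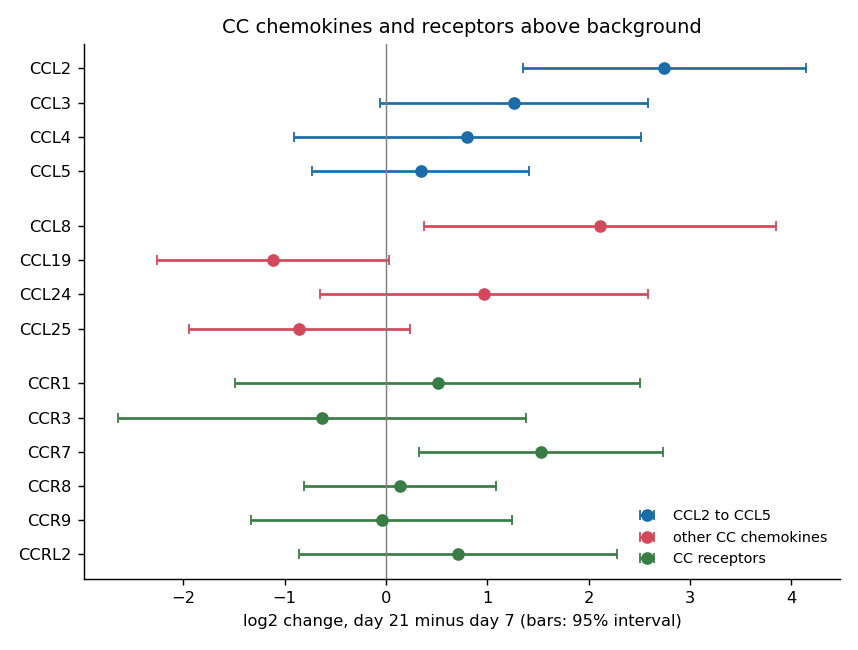
Log2 difference, day 21 minus day 7, with its 95% confidence interval from limma for CCL2 to CCL5, the other CC chemokines tested and the CC chemokine receptors tested. CCL2 (2.75) and CCL8 (2.12) are farthest to the right, CCR7 (1.53) leads the receptors, and CCL19 (-1.12) is farthest to the left.

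Downstream of the receptors, 11 of 21 listed signalling genes had a probe and were tested, 4 above 0 and 7 below, with a median log2 difference of -0.15 and 0 past the threshold in limma. ARRB2, a beta-arrestin that ends receptor signalling, differed by -0.66 ± 0.32 (SE; adjusted p = 0.567, lower in 4 of 4 cows). NUP85, a nuclear pore protein, also known as a CCR2-binding protein, differed by 0.67 ± 0.43 (SE; adjusted p = 0.658, higher in 4 of 4 cows). The G protein subunit GNB1 differed by 0.33 ± 0.37 (SE; adjusted p = 0.806, higher in 3 of 4 cows).

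Upstream, among regulators of CC chemokine transcription, 20 of 27 listed genes were tested, 14 above 0 and 6 below, with a median log2 difference of 0.23 and 0 past the threshold in limma. That median was 0.041 with slide as a fixed term, 0.0069 without the day 7 array of cow 3 and 0.016 without the day 21 array of cow 2. FOS, a subunit of the AP-1 transcription factor, differed by -0.90 ± 0.35 (SE; adjusted p = 0.502 in limma, lower in 4 of 4 cows). TRAF6, an adaptor between Toll-like receptors and NF-kappaB, differed by 0.87 ± 0.49 (SE; adjusted p = 0.617, higher in 4 of 4 cows). The stress-induced factor ATF3 differed by 0.90 ± 0.55 (SE; adjusted p = 0.642, higher in 4 of 4 cows). TNF, which followed CCL4 most closely over the arrays, differed by 0.86 ± 1.01 (SE; adjusted p = 0.817, higher in 3 of 4 cows).

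Monocyte and macrophage markers are given beside CCL2, and 0 of them passed the threshold in limma. The summed level of the 8 monocyte and macrophage markers on the array, in units of the array's 75th percentile, was 6.66 to 9.76 on day 7 and 10.9 to 18.0 on day 21, without overlap and higher in 4 of 4 cows. None of the 8 was below background on every array, and 7 of 8 had a log2 difference above 0, with a median of 0.69. CD14, the lipopolysaccharide co-receptor of monocytes, differed by 1.60 ± 0.45 (SE; adjusted p = 0.392 in limma, higher in 4 of 4 cows). In cow 1 CD14 differed by 0.04 and CCL2 by 2.20, the latter from a day 7 signal not well above background. Over the 8 markers the differences in cow 1 ran from -1.47 for C1QA to 2.37 for MRC1. Their sum in that cow went from 9.76 to 13.3. VCAN differed by 0.86 ± 0.34 (SE; adjusted p = 0.502) at its brighter probe and by -0.06 at the other, and the mannose receptor gene MRC1 by 0.96 ± 0.48 (SE; adjusted p = 0.583). The correlation of CCL2 with CD14 over the 8 arrays was 0.70, which includes the difference between days that both genes had. The part of monocytes in the CCL2, CCL3, CCL4 and CCL8 differences was not tested.

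The summed level of the 13 neutrophil markers was 236.6 to 276.8 on day 7 and 194.5 to 279.9 on day 21, and lower on day 21 in 3 of 4 cows. Cow 2, which went from 259.2 to 258.0, is among the 3, and its day 21 sum includes a marked outlier spot of S100A12. Of the 13 markers 10 were below 0 in log2 difference and 3 above, with a median of -0.26. Among the 10, CXCR1, MMP9 and FCGR3A were each higher on day 21 in 3 of 4 cows. The cow that was lower differed by -8.44 for CXCR1 and -3.72 for MMP9 (cow 1), and by -2.28 for FCGR3A (cow 2). The NADPH oxidase subunit NCF1 differed by -1.26 ± 0.51 (SE; adjusted p = 0.505 in limma), and the cathelicidin gene CATHL1 by -1.85 ± 1.00 (SE; adjusted p = 0.607), both lower in 4 of 4 cows. Without the day 21 array of cow 1 these were -0.78 for NCF1 and -0.61 for CATHL1, and CATHL1 was -0.34 with arrays weighted by quality. On that array of cow 1 the CATHL1 signal was a surrogate at background. CATHL1 differed by -5.56 in cow 1, against -0.98, -0.73 and -0.10 in cows 2 to 4. The leukotriene receptor LTB4R differed by 0.79 ± 0.35 (SE; adjusted p = 0.525, higher in 4 of 4 cows). The part of neutrophil share in the chemokine differences was not tested.

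The summed lymphocyte markers overlapped between the groups. The 8 T cell markers summed to 21.1 to 36.1 on day 7 and 21.8 to 28.8 on day 21, higher in 2 of 4 cows, with a median log2 difference of -0.42. The sum of cow 2, at 21.1 and 28.8, includes a marked outlier spot of CD3E on day 21. CD2 differed by -1.14 ± 0.51 (SE, adjusted p = 0.528 in limma) and CD3G by -0.75 ± 0.48 (SE, adjusted p = 0.653), both lower in 4 of 4 cows. CD5 differed by 0.77 ± 0.49 (SE, adjusted p = 0.649, higher in 4 of 4 cows). The 8 natural killer and cytotoxic cell markers summed to 2.37 to 9.83 on day 7 and 3.00 to 13.4 on day 21, higher in 3 of 4 cows. Of them 7 had a log2 difference above 0 and 1 below, with a median of 0.29. The 1 below was NCR1, at -1.41 ± 0.91 (SE, adjusted p = 0.655 in limma, higher in 1 of 4 cows). KLRD1 differed by 0.57 ± 0.55 (SE, adjusted p = 0.770) and KLRB1 by 0.30 ± 0.38 (SE, adjusted p = 0.832), higher in 2 and 3 of 4 cows. Cow 1 had the highest sum of the natural killer and cytotoxic cell markers on both days, as it had for CCL5. Cow 4 had the second highest sum but the lowest CCL5 of the cows measured on both days. With its marked CCL5 spot kept, cow 2 was below cow 4 on day 21 (2.47 against 2.71). The correlation of CCL5 over 7 arrays with 5 of the natural killer and cytotoxic cell markers (NKG7, KLRD1, PRF1, GZMB and GNLY) was 0.14 to 0.61. It was not computed for KLRB1, KLRK1 and NCR1. With the T cell markers CD3E and CD8A it was -0.35 and 0.04. The part of these cell types in the level of CCL5 was not tested. The 5 B cell and plasma cell markers summed to 15.3 to 31.7 and 15.4 to 19.7, the 2 platelet markers to 1.50 to 4.70 and 1.71 to 6.12, and the 6 erythroid markers to 1.98 to 4.69 and 2.37 to 5.29. Of the 11 eosinophil and basophil markers, 1 (HDC) had a probe, at 0.00494 to 0.0193 on day 7 and 0.0164 to 0.0272 on day 21, higher in 4 of 4 cows. HDC was well above background on 1 of 4 arrays on day 7 and 3 of 4 on day 21. The list therefore says little of these granulocytes, and CCR3, which is not on it, was higher in 1 of 4 cows.

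**Figure D4:**
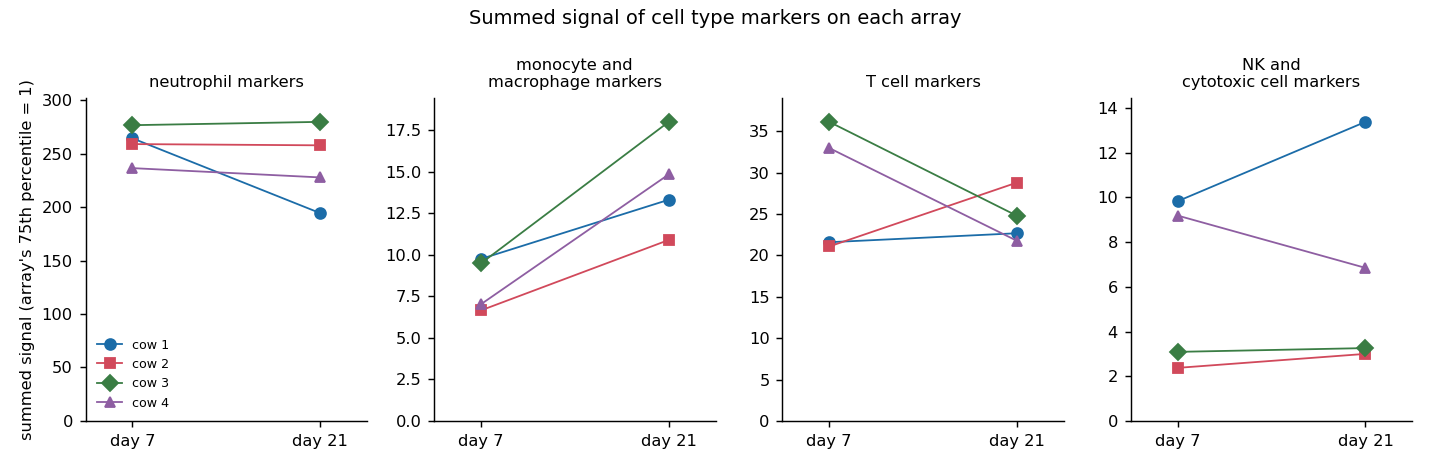
Summed marker signal per array, in units of the array's 75th percentile, for neutrophil, monocyte and macrophage, T cell, and natural killer and cytotoxic cell markers on day 7 and day 21, with a line per cow. Spots marked as outliers were kept in the sums. The monocyte and macrophage sums of day 21 (10.9 to 18.0) lie above those of day 7 (6.66 to 9.76), and the neutrophil sums are lower on day 21 in 3 of 4 cows.

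**Figure D5:**
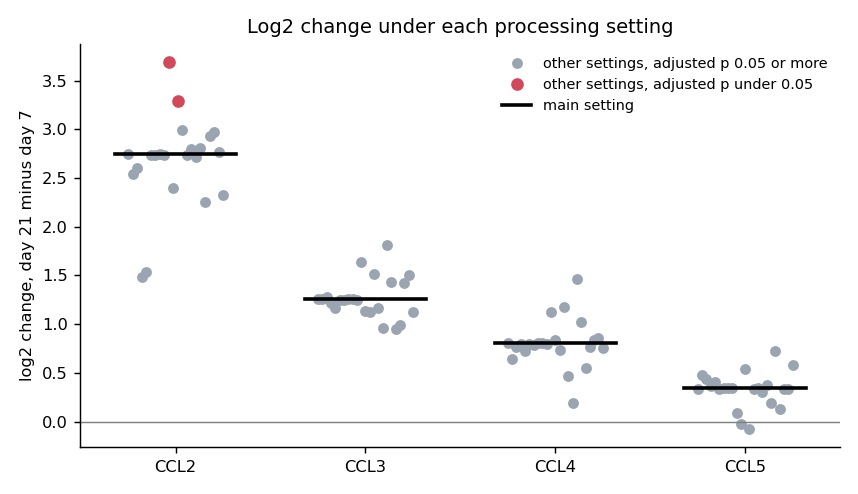
Log2 difference, day 21 minus day 7, of CCL2 to CCL5 under the main setting (black bar) and each alternative (points), leaving out an array or a cow included, with red for an adjusted p under 0.05 in limma. CCL2 spans 1.49 to 3.69 with 2 red points, CCL3 0.95 to 1.81, CCL4 0.19 to 1.47 and CCL5 -0.072 to 0.73.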

How the data were processed

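Granulocyte RNA of 8 samples was measured on Agilent arrays with Cy3 as the only dye, per the labels' protocols. Per the submitters' processing notes and the file headers, the deposited intensity values come from Agilent Feature Extraction 9.5. The authors' processed signal is background-subtracted and spatially detrended, with surrogates at background, per the file headers. The authors' deposited series table holds log2 values equal to the log2 processed signal minus 1 constant per array (within 0.00485, column medians -3.53 to -3.29), and was an alternative. Of 15744 spots, 536 were controls. Outlier spots (0 to 12 per array, 129 on the day 21 array of cow 2) were left out, except from the summed marker levels, which kept them. The weakest signal was 10.6 on the day 7 array of cow 4, against 2.17 to 3.61 elsewhere.

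Values were log2 processed signal minus the array's 75th percentile. Probes well above background on at least 4 of 8 arrays (10459) were fitted in limma 3.58.1 (R 4.3.3; lmFit, eBayes) with no block, with Benjamini-Hochberg adjustment over all of them. This was tested on simulated data. The source names give the same cow for equal replicate numbers. Deviations from the group means correlated at 0.172 to 0.752 within cows and -0.474 to 0.302 between cows. The lowest value within cows was that of cow 2, whose arrays were on different slides. The highest between cows was that of cow 2 on day 7 with cow 1 on day 21, on the same slide. Cow and slide cannot be told apart in these correlations. Cows 3 and 4 each had a slide of their own (slides 3 and 4), slide 1 carried cow 1 on both days and cow 2 on day 7, and slide 2 carried cow 2 on day 21. Each of the 4 slides was scanned on its own day.

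Names came from RefSeq (ARS-UCD2.0): 7109 probes were named (2514 from an accession, 2020 from a gene identifier, 1559 from a gene name, 1016 from a description) and 8099 were not. A gene with several probes was represented by its brightest. The genes named were the 5 chemokines, all other CC chemokines and receptors on the array, the 3 genes of smallest p in the signalling, regulator and main marker lists, and the 5 most correlated with each chemokine; names beyond these were chosen after their values were seen. Of the receptor and neutrophil marker lists, 1 gene each is not reported here. Members and lists were chosen with earlier results of these data known. Alternatives were the cow or slide as a block, other background correction and scaling, other filters, array weights, the deposited table, and leaving out arrays or cows.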

Additional observations from a re-analysis of the deposited data

How the results depend on the processing

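The differences of CCL2, CCL3 and CCL4 kept their direction under every alternative run, over 10 to 11 settings and 12 fits that left out an array or a cow each. Array weights moved CCL2 to 3.69 (adjusted p = 0.00244) and turned CCL5 to -0.023. They gave the cow 1 arrays weights of 0.293 and 0.295 and the cow 4 arrays 3.27 and 7.02, and called 879 probes higher and 821 lower, with CCL2 among them; the cause was not tested. These calls were among 10459 tested probes. Of the other CC chemokines, the receptors and the genes of smallest p in the other lists, the weights also called 11. Their adjusted p in limma was 0.00314 to 0.0407. CCL8, CCL24, CCR7, CCRL2, TRAF6 and CD14 were higher on day 21, and CCL19, CCL25, FOS, CD2 and NCR1 were lower. On the day 7 array of cow 4, CCL2, CCL19 and CCL24 were not well above background. With slide as a random block 2 probes were called higher and 10 lower. Leaving out an array or a cow gave 2.26 to 3.29 for CCL2, 0.95 to 1.81 for CCL3, 0.19 to 1.47 for CCL4 and -0.072 to 0.73 for CCL5, with 0 to 15 probes called higher, 0 to 29 lower, and 0 to 1 of the chemokines. Without the day 21 array of cow 1 the calls were 12 higher and 29 lower, and without cow 1 they were 15 and 21. With the replicate number, which is the cow, as a block, adjusted p in limma was 0.120 for CCL2 (2.75 ± 0.38, SE), 0.173 for CCL3, 0.186 for CCL4 and 0.584 for CCL5. The block changed no call, at 0 higher and 0 lower. Among receptors, array weights turned CCR8 to -0.33, slide as a fixed block turned CCR1 to -0.12 and CCR8 to -0.13, and slide as a random block turned CCR8 to -0.025. Leave-one-out fits gave -0.13 to 1.22 for CCR1, -0.15 to 0.39 for CCR8, -0.46 to 0.30 for CCR9 and -0.090 to 0.86 for the natural killer cell marker KLRD1. Array weights turned KLRD1 to -5.14e-05 and KLRB1 to -0.055. Over all alternatives the list medians were -0.25 to 0.63 for the other CC chemokines, -0.13 to 0.72 for the receptors, -0.20 to 0.057 for signalling, 0.0069 to 0.36 for the regulators, 0.46 to 0.92 for monocyte, -0.46 to -0.074 for neutrophil, -0.66 to -0.20 for T cell and -0.054 to 0.60 for natural killer cell markers. With no filter on dim probes the median of all probes was -0.11 against 0.08. CCL2 was not tested under the filter of all 8 arrays, and other probes could not be tried as each chemokine had 1. The signal over background limits CCL2 on day 7 and CCL20 throughout.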
